A study of Mus musculus with 21 samples.

Results

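Genes of MHC class I antigen presentation and of the immunoproteasome were followed by RNA sequencing of microglia isolated from mouse brain, the resident macrophages of the brain. The set held 10 genes chosen by function, with earlier results of these data known: B2m, H2-K1, H2-D1, H2-T23, Tap1, Tap2, Tapbp, Psmb8, Psmb9 and Nlrc5. Each of the 2 deposited tables listed 54532 genes, and a gene entered the tests where its normalized counts averaged at least 10. That left 16086 genes for aging and 17025 for 5XFAD, and all 10 members were among them in both tables.

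The study asked how loss of Trem1, a myeloid surface receptor that amplifies inflammatory signalling, affects microglia in aging and in a mouse model of Alzheimer's disease. The aging table held aged libraries labelled Trem1-/-, aged wild type libraries, young libraries labelled Trem1-/- and young wild type libraries. The 5XFAD table held libraries of adult mice labelled 5XFADXTREM1+/-, 5XFAD and wild type. Every group had 3 libraries. 5XFAD mice express human transgenes with mutations of familial Alzheimer's disease from the neuronal Thy1 promoter and form amyloid plaques, and in 5XFADXTREM1+/- the label gives a heterozygous Trem1 allele on top of these transgenes. No group held the heterozygous allele without the transgenes. Ages are given only as words, and the sources used here give neither the sex, the way microglia were isolated, nor which part of Trem1 was deleted. Whether replicates of a group were separate animals is not stated either, and each p-value measures only the spread between these libraries, which may be technical.

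Depth on genes ran from 8600878 to 19411434 reads a library for aging and from 9264999 to 18698707 for 5XFAD. Trem1 itself averaged 164 ± 68.9 normalized counts in aged libraries labelled Trem1-/- and 231 ± 40.8 in aged wild type (SD, n = 3 each). In young libraries labelled Trem1-/- it averaged 92.9 ± 5.95, against 13.9 ± 9.83 in young wild type. In the young groups the gene therefore went against the label, and genotypes are given below as labels only. Means were 27.2 in 5XFADXTREM1+/-, 27.5 in 5XFAD and 31.0 in adult wild type, where 1 library was listed at 0. Microglial markers were the most abundant of the marker lists in every group, with sums of 327517 to 509575 normalized counts over 12 genes for aging and 350184 to 482749 for 5XFAD.

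Class I molecules display peptides from inside the cell to CD8 T cells. Proteasomes cut cytosolic proteins, the TAP transporter carries the peptides into the endoplasmic reticulum, and tapasin helps load them onto a heavy chain paired with beta-2 microglobulin. Interferons are known to induce these genes, to replace constitutive proteasome subunits by immunoproteasome subunits, and to raise NLRC5, a transactivator that acts on the SXY module of class I promoters through the X2 and Y boxes and their neighbours. Resting microglia are known for low class I levels that increase in inflammation and aging.

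The promoters of B2m, H2-K1 and H2-D1 are shown because these members passed the test in both tables, and that of Tap1 because its window is largely shared with Psmb9 and neither gene passed by limma on all libraries. The sequences are RefSeq windows of 300 bases (GRCm38.p6), from 250 bases before the annotated start of the gene, and run 5′ to 3′ on the strand of the gene. Capitals mark matches to an NF-kappa-B motif (GGG, 2 unspecified bases, TT, 1 unspecified base, CC) and to GAANNGAAA, both on either strand. They also mark the X2 and Y boxes TGACG and ATTGG where both stood 10 to 30 bases apart on the same strand. Copies of either outside such a pair are left in lower case, such as tgacg in Tap1. GAANNGAAA is a short pattern related to interferon response elements and is not their consensus. Other forms were not searched, and the pattern can miss such elements. The stretch gaaactgaaa in B2m has 1 more a before the 2 unspecified bases, so it does not match these letters. It is left in lower case, although it may be another form of such an element.
B2m, chr2:122147437-122147736, plus strand: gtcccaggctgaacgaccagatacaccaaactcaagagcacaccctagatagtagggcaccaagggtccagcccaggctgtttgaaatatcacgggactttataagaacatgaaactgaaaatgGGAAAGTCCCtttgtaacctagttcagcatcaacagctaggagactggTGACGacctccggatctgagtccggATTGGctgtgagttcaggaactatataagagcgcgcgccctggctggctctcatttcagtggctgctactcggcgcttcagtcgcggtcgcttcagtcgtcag
H2-K1, chr17:34000298-34000597, minus strand: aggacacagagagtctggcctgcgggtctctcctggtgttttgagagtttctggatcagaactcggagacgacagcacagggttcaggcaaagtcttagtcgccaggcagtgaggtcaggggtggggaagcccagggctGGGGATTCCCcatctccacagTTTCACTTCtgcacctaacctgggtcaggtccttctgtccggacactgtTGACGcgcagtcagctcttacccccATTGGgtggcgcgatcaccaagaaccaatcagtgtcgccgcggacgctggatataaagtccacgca
H2-D1, chr17:35262844-35263143, plus strand: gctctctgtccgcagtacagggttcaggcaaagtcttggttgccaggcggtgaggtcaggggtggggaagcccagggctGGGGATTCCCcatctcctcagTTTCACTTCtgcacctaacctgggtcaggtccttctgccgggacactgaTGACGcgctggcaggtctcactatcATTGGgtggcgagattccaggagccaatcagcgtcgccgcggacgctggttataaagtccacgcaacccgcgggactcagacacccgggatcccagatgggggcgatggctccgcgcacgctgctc
Tap1, chr17:34187306-34187605, plus strand: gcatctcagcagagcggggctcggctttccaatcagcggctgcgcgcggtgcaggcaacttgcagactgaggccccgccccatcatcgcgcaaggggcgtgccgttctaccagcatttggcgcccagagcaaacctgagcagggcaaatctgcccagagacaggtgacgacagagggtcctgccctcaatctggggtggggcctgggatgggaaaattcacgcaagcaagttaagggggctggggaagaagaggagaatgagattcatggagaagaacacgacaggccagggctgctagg

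In B2m, H2-K1 and H2-D1 the X2 and Y boxes lay on the strand of the gene with exactly 20 bases between them, although the bases in between differed. The first base of the pair stood 78 bases before the start in B2m, 41 in H2-K1 and 101 in H2-D1. RefSeq lists a second start for H2-K1, and from it the same pair stood 55 bases away. Any spacing of 10 to 30 bases, on either strand, was present in 244 of 32851 RefSeq mouse promoter windows (0.74%), and the spacing of 20 in 31 of them (0.094%). The spacing of 20 was read from these 3 members, whose own windows are among the 31, so its rarity tests nothing. The NF-kappa-B motif was found in the same 3 members and in 4.79% of all windows. The pattern GAANNGAAA was found in H2-K1 and H2-D1 and in 7.52% of all windows. A window without it, such as that of B2m, may still hold another form of interferon response element. A gamma-activated site, TTCNNNGAA, was found in Psmb8 alone among the members and in 8.30% of all windows. H2-T23, Tap1, Tapbp and Psmb9 held none of the 4 motifs in these letters, and Tap2 and Nlrc5 were not in the promoter table. The windows of Tap1 and Psmb9, which are transcribed away from each other, share 275 bases.

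**Figure D1:**
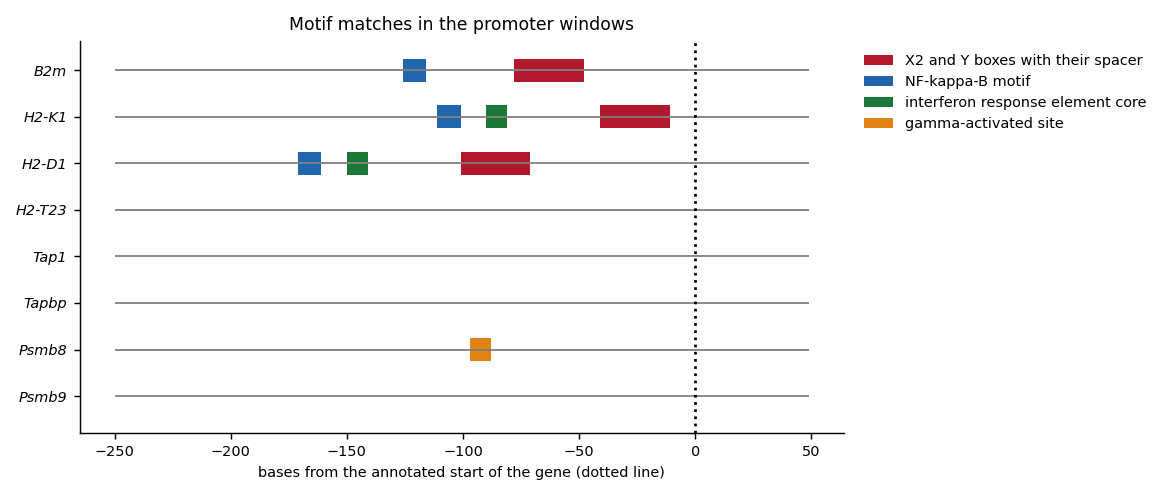
Position of each motif match, in bases from the annotated start of the gene (dotted line), in the promoter windows of the 8 members found in the promoter table, with 1 row per gene and 1 colour per motif. The X2 and Y boxes appear in B2m, H2-K1 and H2-D1. The interferon-related pattern, searched as GAANNGAAA only, appears in H2-K1 and H2-D1, and the gamma-activated site in Psmb8. Other forms of interferon response element were not searched, and windows without a match, such as that of B2m, may still hold one.

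On the genome (GRCm38, GENCODE M21) 8 of the 10 members lie in or beside the H2 complex on chromosome 17, from Tapbp at 33915899 to 33929292 to H2-T23 at 36029773 to 36032855. B2m lies on chromosome 2 at 122147686 to 122153083 and Nlrc5 on chromosome 8 at 94434356 to 94527272. Between these ends Psmb9 (34181987 to 34187764, minus strand), Tap1 (34187553 to 34197225), Psmb8 (34197721 to 34201454) and Tap2 (34203527 to 34216321) follow each other. Exons of Tap1 and Psmb9 overlap by 212 bases on opposite strands. Antisense transcripts overlap 24.9% of the exon bases of Tapbp, 14.7% of Psmb8 and 14.1% of Tap2, and the sources used here do not say whether counting used strand. Of the 50-base words in transcripts of a member, 12.8% for H2-D1, 9.6% for H2-K1 and 13.6% for H2-T23 also occur in another gene, mostly another class I gene, so reads of these 3 genes may be shared with paralogs.

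Levels differed widely between members. Exon length was the union of all annotated exons, 860 bases for B2m, 2889 for H2-T23, 3381 for Psmb8 and 3660 for Psmb9. In H2-T23 and Psmb8 it covered most of the gene from start to end. That union can be longer than the transcripts present, and values per kilobase are then too low. The order of members below depends on these lengths. Per kilobase of exon, young wild type libraries averaged 10429 ± 589 normalized counts for B2m, which encodes the light chain of every class I molecule (SD, n = 3). The classical heavy chains followed, H2-D1 at 2330 ± 299 and H2-K1 at 1044 ± 158 per kilobase. Tapbp, which encodes tapasin, was at 934 ± 79.9 per kilobase, within 1 SD of H2-K1. Next came H2-T23, the nonclassical heavy chain Qa-1 that presents to NK cells and CD8 T cells, at 547 ± 35.9, and Psmb8, the chymotrypsin-like immunoproteasome subunit LMP7, at 357 ± 34.5 per kilobase. The subunits of the peptide transporter were lower, with Tap2 at 240 ± 32.9 and Tap1 at 168 ± 6.46 per kilobase. Psmb9, the immunoproteasome subunit LMP2, was at 91.2 ± 5.99, and Nlrc5 was the lowest at 22.6 ± 9.98 per kilobase.

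In aged wild type microglia, beta-2 microglobulin, both classical heavy chains and the transactivator Nlrc5 were higher than in young wild type. The transporter, tapasin and the immunoproteasome subunits did not pass the test. Of the 10 members 4 passed, all higher (limma, adjusted p under 0.05), beside 8.67% of all genes tested in either direction and 6.43% higher. The median log2 difference was 0.13 over the members and -0.01 over all genes. Groups did not overlap for 5 members, all higher, beside 15.1% of all genes apart in that direction. The fifth was H2-T23. With limma's trend and robust options off, H2-D1 alone of the 4 passed (adjusted p = 0.0193), and H2-K1 had an adjusted p of 0.0644.

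The H2-D1 heavy chain had 13945, 9770 and 13501 normalized counts in aged wild type libraries, against 6897, 5502 and 5627 in young wild type. Every aged library was above every young one, and the log2 difference was 1.04 ± 0.14 (SE, limma adjusted p = 0.000125), a fold of 2.05. For H2-K1 the aged wild type libraries had 5717, 4175 and 5148 and the young wild type libraries 3604, 2789 and 2810. Again no library overlapped, with a log2 difference of 0.71 ± 0.13 (limma adjusted p = 0.00113). These 2 genes encode the heavy chains that present peptide to CD8 T cells, and both calls held without each library in turn.

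B2m had 13165, 10230 and 13360 normalized counts in aged wild type and 8682, 8672 and 9554 in young wild type. Its log2 difference was 0.44 ± 0.10 (limma adjusted p = 0.00553), the smallest in size of the 4 that passed, and without aged wild type replicate 3 it had an adjusted p of 0.0543. Nlrc5 had 489, 370 and 434 in aged wild type and 285, 174 and 118 in young wild type. The transactivator showed the widest difference of the set on the log2 scale, 1.24 ± 0.32 (limma adjusted p = 0.0180). That call was lost without young wild type replicate 2 or 3 and without aged wild type replicate 1 or 3, with adjusted p of 0.0695 to 0.0866.

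Members of the peptide supply did not pass in this comparison. In aged wild type Tap1 averaged 968 ± 30.2 normalized counts, against 919 ± 35.4 in young wild type, and Tap2 averaged 886 ± 62.8 in aged wild type and 908 ± 124 in young wild type (SD, n = 3 each). Tapbp was at 3248 ± 296 in aged wild type and 3388 ± 290 in young wild type. Among proteasome subunits, Psmb8 was at 1175 ± 91.8 in aged and 1207 ± 117 in young wild type, and Psmb9 at 291 ± 55.2 in aged and 334 ± 21.9 in young wild type. All 5 overlapped between the groups. The 95% interval of the log2 difference was -0.20 to 0.34 for Tap1, -0.35 to 0.29 for Tap2, -0.29 to 0.17 for Tapbp, -0.32 to 0.24 for Psmb8 and -0.69 to 0.27 for Psmb9. H2-T23 averaged 1793 ± 122 in aged and 1579 ± 104 in young wild type, with a log2 difference of 0.18 ± 0.12 (limma adjusted p = 0.434).

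**Figure D2:**
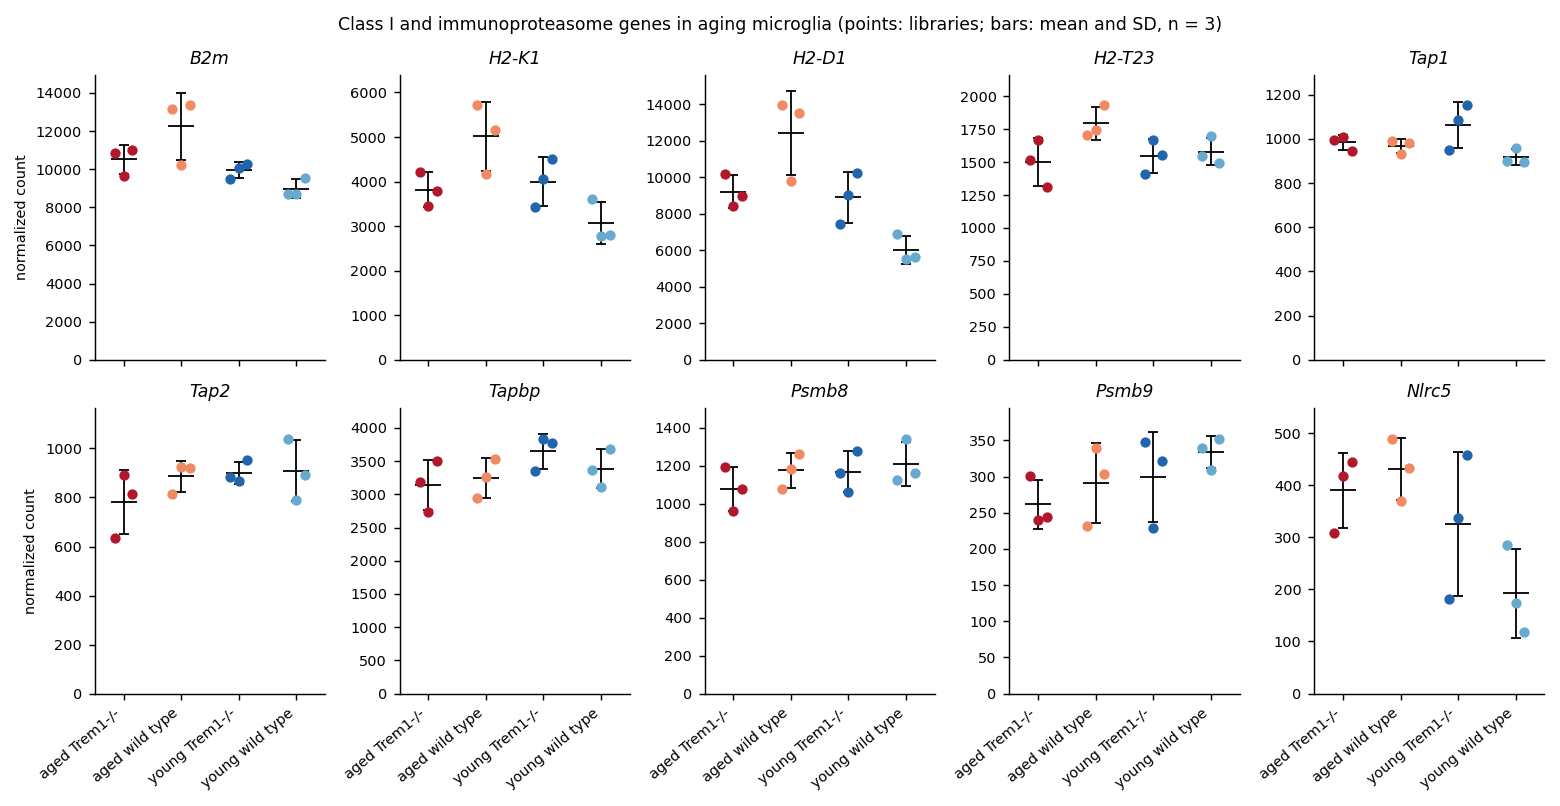
Normalized count of each member in the 12 libraries of the aging table (vertical axes, from 0), by group, with a point per library and bars for mean and SD (n = 3). H2-D1 and H2-K1 are highest in aged wild type and lowest in young wild type, while Tap2, Tapbp, Psmb8 and Psmb9 overlap between aged and young wild type.

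Transcripts of other cells rose between the same libraries. Of 15 neutrophil markers 14 rose, with summed levels of 82865 to 149757 normalized counts in aged wild type and 17460 to 26209 in young wild type, and 11 of 11 tested monocyte markers rose, with sums of 19304 to 36298 in aged and 2584 to 5511 in young wild type. Of 5 choroid plexus and ependyma markers tested 2 rose, the folate receptor gene Folr1 and the ciliary factor Foxj1, with sums of 27045 to 44837 in aged and 6038 to 14980 in young wild type. Microglial markers fell for 8 of 12, with sums of 352798 to 389549 in aged and 452029 to 509575 in young wild type. Among T and NK cell markers Trac was at 0 in every library of the aging table, and the 12 summed to 16.5 to 109 normalized counts there. All nucleated cells express class I genes, and in bulk RNA a change in the share of cells and a change in RNA per cell cannot be told apart. The part of neutrophil, monocyte, choroid plexus and microglial transcripts in the class I difference was not tested.

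Young libraries labelled Trem1-/-, which carried more Trem1 than young wild type, passed against young wild type for 1 of 10 members, H2-D1, beside 2.58% of all genes in either direction and 2.36% higher (limma). H2-D1 had 7455, 9015 and 10251 normalized counts in these libraries, above all 3 young wild type values given above. The log2 difference was 0.56 ± 0.14 (limma adjusted p = 0.0382). The call was lost without young wild type replicate 2 or 3 and without young replicate 2 or 3 labelled Trem1-/-, with adjusted p of 0.142 to 0.184, and it was also lost with the trend and robust options off (0.287) and with no filter on low genes (0.321). H2-K1 had 3427, 4050 and 4515 in the same libraries and overlapped young wild type, with a log2 difference of 0.38 ± 0.13 (limma adjusted p = 0.161). Nlrc5 spread from 181 to 458 there, with a log2 difference of 0.75 ± 0.32 (limma adjusted p = 0.327). B2m averaged 9944 ± 422, against 8969 ± 506 in young wild type, and the remaining members lay between -0.18 and 0.20 on the log2 scale. Neutrophil markers rose for 5 of 15, with sums of 38674 to 77763 in young libraries labelled Trem1-/-, and monocyte markers for 7 of 11, with sums of 15340 to 38801. Of the 12 microglial markers 1 fell and of the 5 choroid plexus and ependyma markers 0 passed. Their part in the H2-D1 difference was not tested.

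Aged libraries labelled Trem1-/- lay on average between aged and young wild type for H2-D1. They had 10187, 8414 and 8985 normalized counts of H2-D1, above every young wild type library and overlapping aged wild type at 1 library. Against young wild type 2 of 10 members passed, H2-D1 at 0.62 ± 0.14 (limma adjusted p = 0.0116) and Nlrc5 at 1.09 ± 0.32 (adjusted p = 0.0447), beside 6.67% of all genes in either direction and 4.65% higher. Nlrc5 had 308, 417 and 445 in these libraries. The H2-D1 call was lost on leaving out replicate 2 or 3 of young wild type, or replicate 1 of the aged libraries labelled Trem1-/-, with adjusted p of 0.0504 to 0.0591. The Nlrc5 call was lost without any single library other than young wild type replicate 1, with adjusted p of 0.0528 to 0.190. With the trend and robust options off, H2-D1 had an adjusted p of 0.125 and Nlrc5 0.176, H2-D1 was at 0.128 with no filter on low genes, and Nlrc5 at 0.0677 by edgeR. Neutrophil markers rose for 13 of 15 and monocyte markers for 6 of 11 in this comparison, with neutrophil sums of 68955 to 159551 and monocyte sums of 17903 to 22784 in aged libraries labelled Trem1-/-. Microglial markers fell for 10 of 12. Choroid plexus and ependyma markers rose for 2 of 5, with sums of 30961 to 40928 in aged libraries labelled Trem1-/- and 6038 to 14980 in young wild type. Their part was not tested.

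Against aged wild type, 0 of 10 members passed in aged libraries labelled Trem1-/- by limma, edgeR or DESeq2. The smallest adjusted p by limma was 0.379, and 0% of all genes passed (limma, with 1545 at an unadjusted p under 0.05; edgeR called 0 and DESeq2 23 of all genes). At an unadjusted p under 0.05 stood 4 members. All 4 had log2 differences below 0 against aged wild type: H2-D1 at -0.42 ± 0.14, H2-K1 at -0.39 ± 0.13, H2-T23 at -0.26 ± 0.12 and B2m at -0.21 ± 0.10 (log2 difference ± SE). H2-K1 had 4223, 3445 and 3779 normalized counts in aged libraries labelled Trem1-/-, overlapping the lowest aged wild type library. H2-T23, with 1516, 1671 and 1315, was the single member whose groups did not overlap, beside 6.25% of all genes apart in that direction. The median over the members was -0.17, against -0.02 over all genes.

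Within the label Trem1-/-, the members did not pass between ages. Of the 10 members 0 passed between aged and young libraries labelled Trem1-/-, by limma, edgeR or DESeq2, and 0 had an unadjusted p under 0.05, beside 1.71% of all genes called by limma. H2-D1 differed by 0.05 ± 0.14 and H2-K1 by -0.06 ± 0.13 on the log2 scale. The 95% intervals were -0.24 to 0.35 for H2-D1 and -0.34 to 0.21 for H2-K1. Of the 19 other pathway genes tested, the class Ib heavy chain H2-Q6 rose, at 1.84 ± 0.33 (limma adjusted p = 0.00475), and Pdia3, a thiol oxidoreductase of the peptide-loading complex, fell by 0.52 (adjusted p = 0.0149). Reads of H2-Q6 may be shared with other class I genes. Of 5 class I-like genes tested 2 fell, the IgG receptor Fcgrt by 0.73 and the iron regulator Hfe by 0.72 on the log2 scale (limma adjusted p = 0.00475 and 0.0052).

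The age effect itself differed between the genotype labels for both classical heavy chains. The age effect in libraries labelled Trem1-/- minus that in wild type was -0.98 ± 0.20 for H2-D1 (limma interaction, adjusted p = 0.0126) and -0.77 ± 0.19 for H2-K1 (adjusted p = 0.0273). That was 2 of 10 members, beside 2.54% of all genes in either direction and 2.14% lower. The H2-D1 call was kept without each library in turn. The H2-K1 call was lost without replicate 2 or 3 of young wild type, of young Trem1-/- or of aged Trem1-/- as labelled, and without aged wild type replicate 1 or 3, with adjusted p of 0.0636 to 0.10. With the trend and robust options off neither passed (adjusted p = 0.176 for H2-D1 and 0.240 for H2-K1), and with no filter on low genes H2-D1 was at 0.133. Nlrc5 stood at -0.90 ± 0.45 (adjusted p = 0.357) and B2m at -0.36 ± 0.14 (adjusted p = 0.195, and 0.0203 without aged wild type replicate 2). Members of the peptide supply lay between -0.19 and 0.03. For H2-D1, libraries labelled Trem1-/- differed from wild type by 0.56 in the young groups and -0.42 in the aged groups. For H2-K1 these values were 0.38 and -0.39. Differences at both ages thus enter the interaction, and only that of H2-D1 in the young groups passed. Since Trem1 went against the label in the young groups, the direction of the interaction holds for the labels only. Of 15 neutrophil markers 3 and of 11 monocyte markers 6 also had a lower age effect in libraries labelled Trem1-/-, and of 12 microglial markers 1 had a higher one. Their part was not tested.

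**Figure D3:**
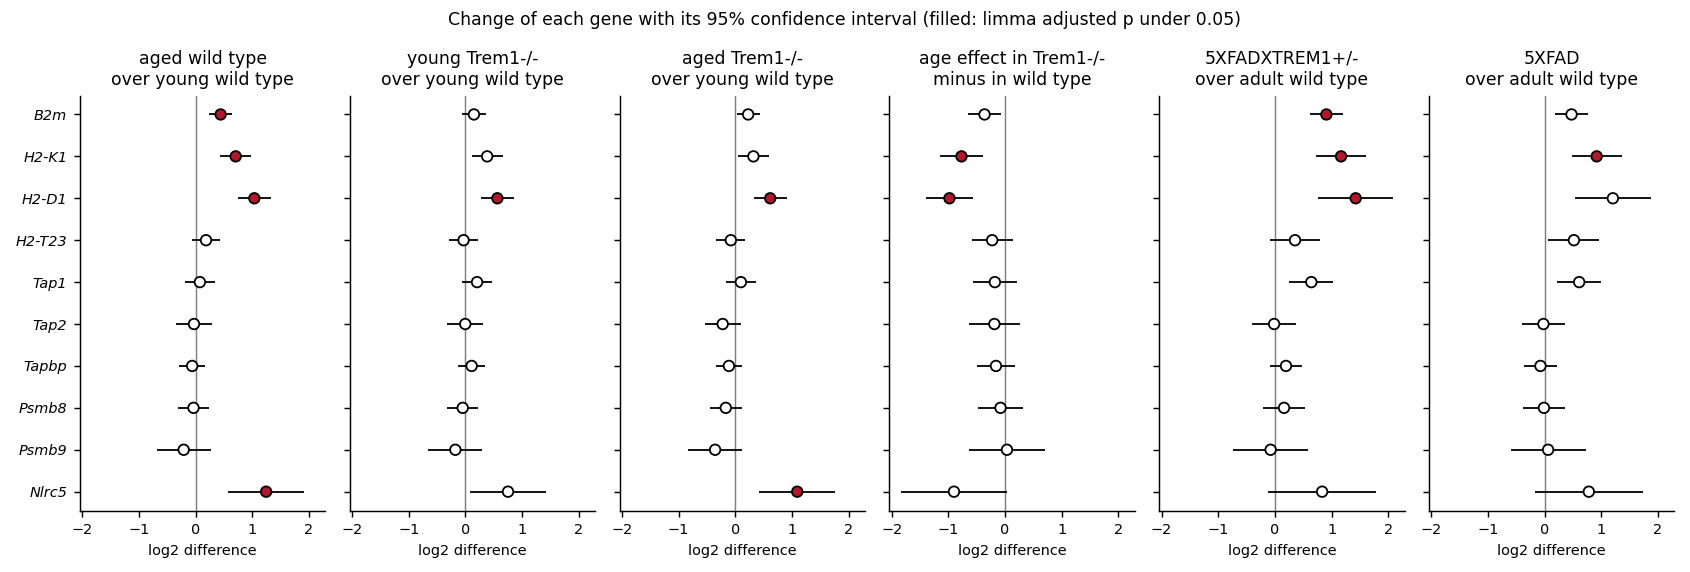
Log2 difference of each member (horizontal axis) with its 95% confidence interval from limma in 6 comparisons, 1 panel each, with filled points for an adjusted p under 0.05. Filled points are confined to B2m, H2-K1, H2-D1 and Nlrc5 in these 6 panels.

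Other class I genes and the interferon genes that surround the pathway were counted from listed sets. Of 19 other class I pathway genes tested, 1 rose in aged against young wild type, the insulin-degrading enzyme Ide, which can also trim peptides (0.88 ± 0.18, limma adjusted p = 0.00218). Psmb10, the remaining catalytic immunoproteasome subunit, was at 0.21 ± 0.20 (adjusted p = 0.616). Among 22 regulators 3 rose, among them Irf9 at 0.55 ± 0.15 (limma adjusted p = 0.0212) and Stat2 at 0.60 ± 0.18 (adjusted p = 0.0449), which act in type I interferon signalling. The interferon-gamma receptor chain Ifngr1 fell, at -0.35 ± 0.09 (adjusted p = 0.0111).

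Type I interferon response genes rose for 12 of 30 in aged wild type against young wild type, with a median log2 difference of 1.07 over the list. Oasl2, of the antiviral oligoadenylate synthetase family, was at 1.98 ± 0.26 there. The same list had 9 of 30 higher in aged libraries labelled Trem1-/- against young wild type, and 7 of 30 higher in young libraries labelled Trem1-/- against young wild type. These comparisons share the young wild type libraries. In the interaction 7 of 30 were lower and 0 higher, among them Oasl2 at -2.27 ± 0.36 (limma adjusted p = 0.00132). Interferon-gamma response genes rose for 7 of 17 in aged wild type, with the class II invariant chain Cd74 at 1.41 ± 0.22 and H2-Ab1, a class II beta chain, at 0.95 ± 0.17.

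In the 5XFAD table the members that passed encode the light chain and the classical heavy chains. Against adult wild type, 3 of 10 members passed in 5XFADXTREM1+/-, all higher, beside 2.78% of all genes in either direction and 2.04% higher (limma). In 5XFAD 1 of 10 passed, beside 1.98% in either direction and 1.62% higher. The median log2 difference over the members was 0.50 in 5XFADXTREM1+/- and 0.49 in 5XFAD, against 0.02 over all genes for 5XFADXTREM1+/- and 0.00 for 5XFAD. Groups did not overlap for 4 members in each comparison, B2m, H2-K1, H2-D1 and Tap1, beside 12.9% of all genes in that direction for 5XFADXTREM1+/- and 9.32% for 5XFAD. Both comparisons use the same adult wild type libraries. With limma's trend and robust options off 0 members passed in either, and the adjusted p of the 4 calls were then 0.154 to 0.262.

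B2m had 14924, 15924 and 14003 normalized counts in 5XFADXTREM1+/-, 12666, 12842 and 8275 in 5XFAD, and 8147, 7504 and 8234 in adult wild type. The light chain thus stood above adult wild type in every library of both transgenic groups, and the third 5XFAD library came closest to it. Against adult wild type the log2 difference was 0.91 ± 0.14 in 5XFADXTREM1+/- (limma adjusted p = 0.00198), kept without each library in turn. In 5XFAD it was 0.47 ± 0.14 (limma adjusted p = 0.0953). B2m passed there by DESeq2 (adjusted p = 0.0186), with no filter on low genes (1.64e-06) and without 5XFAD replicate 3 (0.00282). With no filter the SE of B2m in 5XFADXTREM1+/- against adult wild type was 0.08 in place of 0.14. The small adjusted p of that setting goes with a narrower estimate of the spread, not with a larger difference.

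H2-K1 had 5543, 4160 and 4433 in 5XFADXTREM1+/-, 4265, 5112 and 2784 in 5XFAD, and 2032, 1778 and 2494 in adult wild type. Its log2 difference from adult wild type was 1.17 ± 0.20 in 5XFADXTREM1+/- (limma adjusted p = 0.00957) and 0.92 ± 0.20 in 5XFAD (adjusted p = 0.0406), and this heavy chain was the 1 member past the threshold in both. In 5XFADXTREM1+/- the call was lost without adult wild type replicate 2 (adjusted p = 0.0571). In 5XFAD it was lost without adult wild type replicate 1 or 2 and without 5XFAD replicate 1 or 2, with adjusted p of 0.0914 to 0.176, and without 5XFAD replicate 3 it was 0.00122.

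H2-D1 had 9803, 8356 and 9664 in 5XFADXTREM1+/-, 8851, 9677 and 5816 in 5XFAD, and 4200, 2223 and 4375 in adult wild type. The second adult wild type library was the lowest by far. Against adult wild type H2-D1 differed by 1.43 ± 0.29 in 5XFADXTREM1+/- (limma adjusted p = 0.0456) and by 1.203 ± 0.288 in 5XFAD (adjusted p = 0.0953). The first call was lost without adult wild type replicate 1 or any of the 5XFADXTREM1+/- libraries, with adjusted p of 0.0532 to 0.209, and without adult wild type replicate 2 it was 0.00806 with a log2 difference of 1.11. With no filter on low genes its adjusted p was 0.127. In 5XFAD H2-D1 passed by DESeq2 (adjusted p = 6.38e-06), without adult wild type replicate 2 (0.0366) and without 5XFAD replicate 3 (0.0480).

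Tap1, the other member apart from adult wild type in both groups, had 994, 929 and 941 normalized counts in 5XFADXTREM1+/-, 896, 1024 and 882 in 5XFAD, and 526, 538 and 806 in adult wild type. The third adult wild type library came closest to the transgenic groups. The log2 difference was 0.64 ± 0.18 in 5XFADXTREM1+/- (limma adjusted p = 0.0683) and 0.61 ± 0.18 in 5XFAD (adjusted p = 0.103). Without adult wild type replicate 3 Tap1 passed in 5XFADXTREM1+/- (adjusted p = 0.0177) and in 5XFAD (0.0297), and by DESeq2 it passed in 5XFADXTREM1+/- (0.0431). Its partner Tap2 averaged 862 ± 97.9 in 5XFADXTREM1+/-, 861 ± 149 in 5XFAD and 875 ± 150 in adult wild type (SD, n = 3 each). For Tap2 the 95% interval against adult wild type was -0.40 to 0.37 in 5XFADXTREM1+/- and -0.41 to 0.36 in 5XFAD.

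Immunoproteasome subunits overlapped across all 3 groups of this table. Psmb8 averaged 1150 ± 44.2 in 5XFADXTREM1+/-, 1039 ± 258 in 5XFAD and 1033 ± 131 in adult wild type, and Psmb9 averaged 240 ± 45.5 in 5XFADXTREM1+/-, 274 ± 102 in 5XFAD and 251.1 ± 34.3 in adult wild type. Tapbp was at 3506 ± 394 in 5XFADXTREM1+/-, 2915 ± 449 in 5XFAD and 3059 ± 323 in adult wild type. H2-T23 was at 1466 ± 193 in 5XFADXTREM1+/-, 1644 ± 285 in 5XFAD and 1188 ± 428 in adult wild type. Nlrc5 averaged 329 ± 151 in 5XFADXTREM1+/- and 348 ± 244 in 5XFAD, against 178 ± 52.4 in adult wild type, and its largest value, 626 in 5XFAD replicate 1, was more than its other 5XFAD values of 252 and 166 combined. In 5XFADXTREM1+/- replicate 1 was also the highest for Nlrc5, at 500 against 214 and 274. In adult wild type the highest was replicate 2, at 234. None of these 5 passed in any comparison of the table by limma on all libraries, and their smallest adjusted p was 0.259, for H2-T23 in 5XFAD against adult wild type, which was 0.0381 without adult wild type replicate 3.

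**Figure D4:**
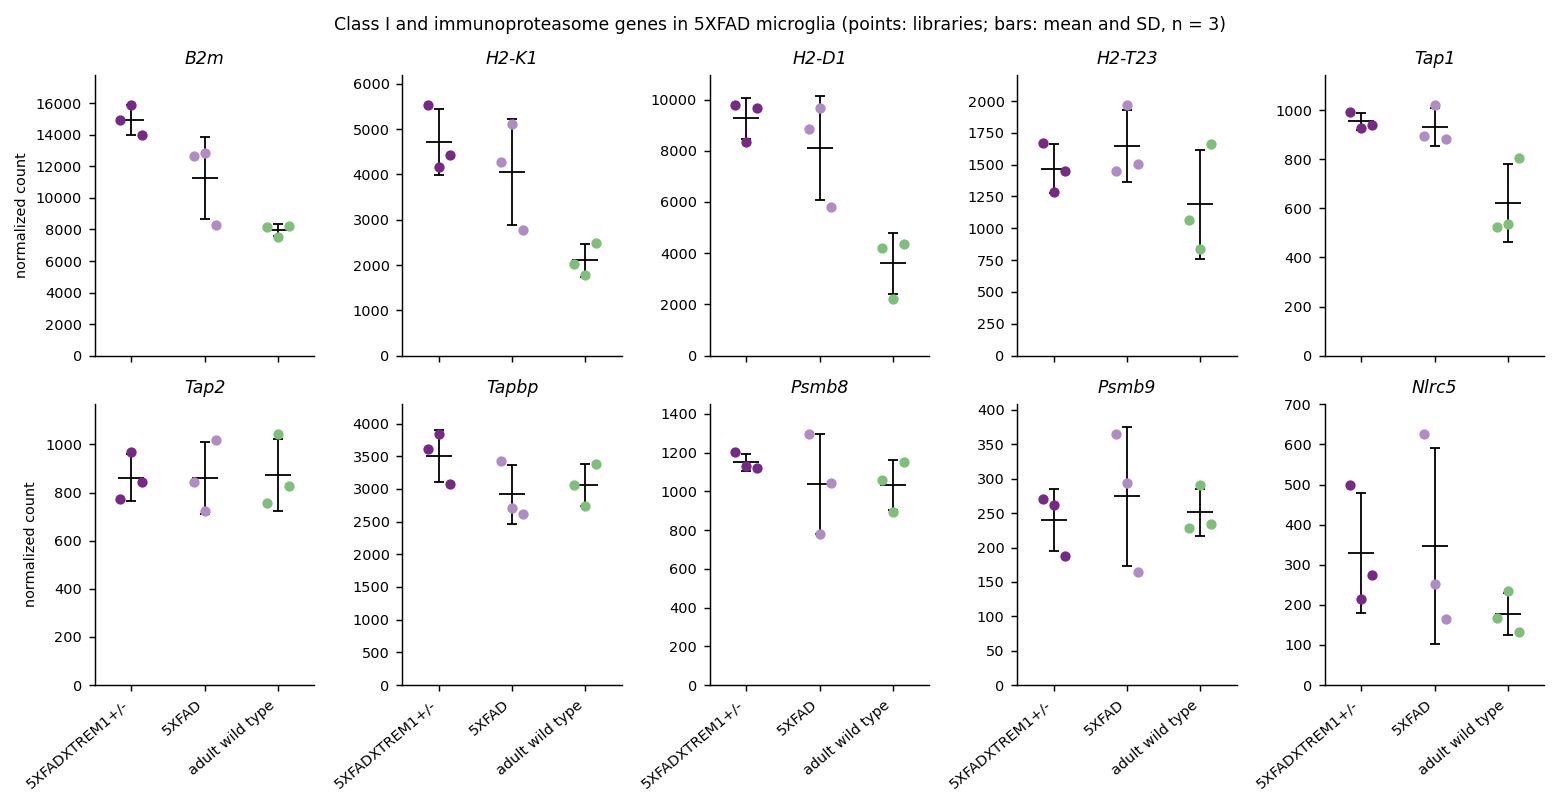
Normalized count of each member in the 9 libraries of the 5XFAD table (vertical axes, from 0), by group, with a point per library and bars for mean and SD (n = 3). B2m, H2-K1, H2-D1 and Tap1 lie higher in both transgenic groups than in adult wild type, whose second library is the lowest for B2m, H2-K1 and H2-D1.

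Between 5XFADXTREM1+/- and 5XFAD, 0 of 10 members passed by limma, edgeR or DESeq2, beside 0% of all genes by limma (883 at an unadjusted p under 0.05; edgeR called 0 and DESeq2 12 of all genes). B2m was the 1 member with an unadjusted p under 0.05, at 0.44 ± 0.14 (limma adjusted p = 0.863). Without 5XFAD replicate 3, the lowest of its group, the log2 difference of B2m was 0.23. With no filter on low genes B2m passed (limma adjusted p = 0.000630), a setting that narrowed its SE as given above. It was also the 1 member whose groups did not overlap, beside 5.24% of all genes apart in that direction. The interval of the difference was -0.19 to 0.69 for H2-K1 and -0.44 to 0.89 for H2-D1.

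Of the 19 other pathway genes 3 rose in 5XFADXTREM1+/- against adult wild type. Both subunits of the proteasome activator PA28 were among them, Psme1 at 0.63 ± 0.15 and Psme2 at 1.64 ± 0.41 (limma adjusted p = 0.0313 and 0.0407). The third was the class Ib heavy chain H2-Q6 at 2.64 ± 0.54, a gene whose reads may be shared with other class I genes, and it was the 1 that rose in 5XFAD, at 2.21 ± 0.54 (limma adjusted p = 0.0135 in 5XFADXTREM1+/- and 0.0446 in 5XFAD). Of 28 type I interferon response genes 3 rose in 5XFADXTREM1+/- and 1 in 5XFAD, Ifit3 at 1.57 ± 0.34 in 5XFADXTREM1+/- and 1.62 ± 0.34 in 5XFAD. Of 17 interferon-gamma response genes 0 rose by limma in either.

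Neutrophil and monocyte markers did not pass in these comparisons, 0 of 15 and 0 of 11 by limma. Neutrophil sums were 22397 to 33121 normalized counts in 5XFADXTREM1+/-, 21746 to 31231 in 5XFAD and 14307 to 57793 in adult wild type. Monocyte sums were 3112 to 6477 in 5XFADXTREM1+/-, 2333 to 9133 in 5XFAD and 982 to 8340 in adult wild type. Both overlapped adult wild type. The astrocyte marker Gfap rose, 1 of 6 on its list, at 3.90 ± 0.74 in 5XFADXTREM1+/- and 4.56 ± 0.74 in 5XFAD. Of 5 choroid plexus and ependyma markers 0 passed, yet their sums were 18243 to 103245 in 5XFADXTREM1+/- and 14962 to 81767 in 5XFAD, against 2271 to 6568 in adult wild type. Microglial markers summed to 414086 to 467701 in 5XFADXTREM1+/-, 350184 to 393861 in 5XFAD and 435006 to 482749 in adult wild type. Against adult wild type 2 of the 12 rose in 5XFADXTREM1+/-, and 1 rose and 3 fell in 5XFAD. The part of astrocyte, choroid plexus and microglial transcripts in the class I differences was not tested.

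Ratios within a library do not depend on the scaling between libraries. The 8 ratios computed are given as values and were not tested. The ratio of H2-D1 to H2-K1 counts was 2.41, 2.44 and 2.38 in aged libraries labelled Trem1-/-, 2.44, 2.34 and 2.62 in aged wild type, 2.18, 2.23 and 2.27 in young libraries labelled Trem1-/-, and 1.91, 1.97 and 2.002 in young wild type. All aged libraries were above all young ones for this ratio, and young libraries labelled Trem1-/- were above young wild type. In the 5XFAD table the ratio of H2-D1 to H2-K1 overlapped between all groups, from 1.25 to 2.18. H2-D1 to Tapbp was 2.71, 2.18 and 3.15 in 5XFADXTREM1+/-, 2.58, 3.58 and 2.23 in 5XFAD, and 1.38, 0.811 and 1.29 in adult wild type. The heavy chain was thus higher relative to tapasin in every transgenic library. H2-D1 to B2m was 0.955 to 1.06 in aged wild type and 0.589 to 0.794 in young wild type, with no overlap, while H2-K1 to B2m and Tap1 to Tap2 overlapped between those groups. In the 5XFAD table H2-D1 to B2m was 0.525 to 0.690 in 5XFADXTREM1+/-, 0.699 to 0.754 in 5XFAD and 0.296 to 0.531 in adult wild type. H2-K1 to B2m was 0.261 to 0.371 in 5XFADXTREM1+/-, 0.336 to 0.398 in 5XFAD and 0.237 to 0.303 in adult wild type. For both ratios 5XFAD lay above adult wild type, and 5XFADXTREM1+/- overlapped adult wild type.

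Immunoproteasome subunits were also set against the constitutive subunits they replace. Psmb8 to Psmb5, a replacement of the chymotrypsin-like subunit, averaged 4.18 ± 0.55 in aged libraries labelled Trem1-/-, 4.65 ± 1.14 in aged wild type, 4.98 ± 0.54 in young libraries labelled Trem1-/- and 6.05 ± 1.07 in young wild type (SD, n = 3 each). Aged libraries labelled Trem1-/- were all below young wild type, and the other pairs of groups overlapped. Psmb9 to Psmb6 averaged 0.515 ± 0.076 in aged libraries labelled Trem1-/-, 0.550 ± 0.200 in aged wild type, 0.460 ± 0.088 in young libraries labelled Trem1-/- and 0.575 ± 0.067 in young wild type, and every pair of groups overlapped. Psmb10 to Psmb7 averaged 1.54 ± 0.41 in aged libraries labelled Trem1-/-, 2.30 ± 0.98 in aged wild type, 2.18 ± 0.12 in young libraries labelled Trem1-/- and 1.86 ± 0.06 in young wild type. For this pair the young libraries labelled Trem1-/- were all above young wild type and above the aged libraries labelled Trem1-/-, and the other pairs of groups overlapped. In the 5XFAD table Psmb8 to Psmb5 averaged 4.97 ± 0.38 in 5XFADXTREM1+/-, 4.79 ± 1.74 in 5XFAD and 5.44 ± 1.61 in adult wild type.

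**Figure D5:**
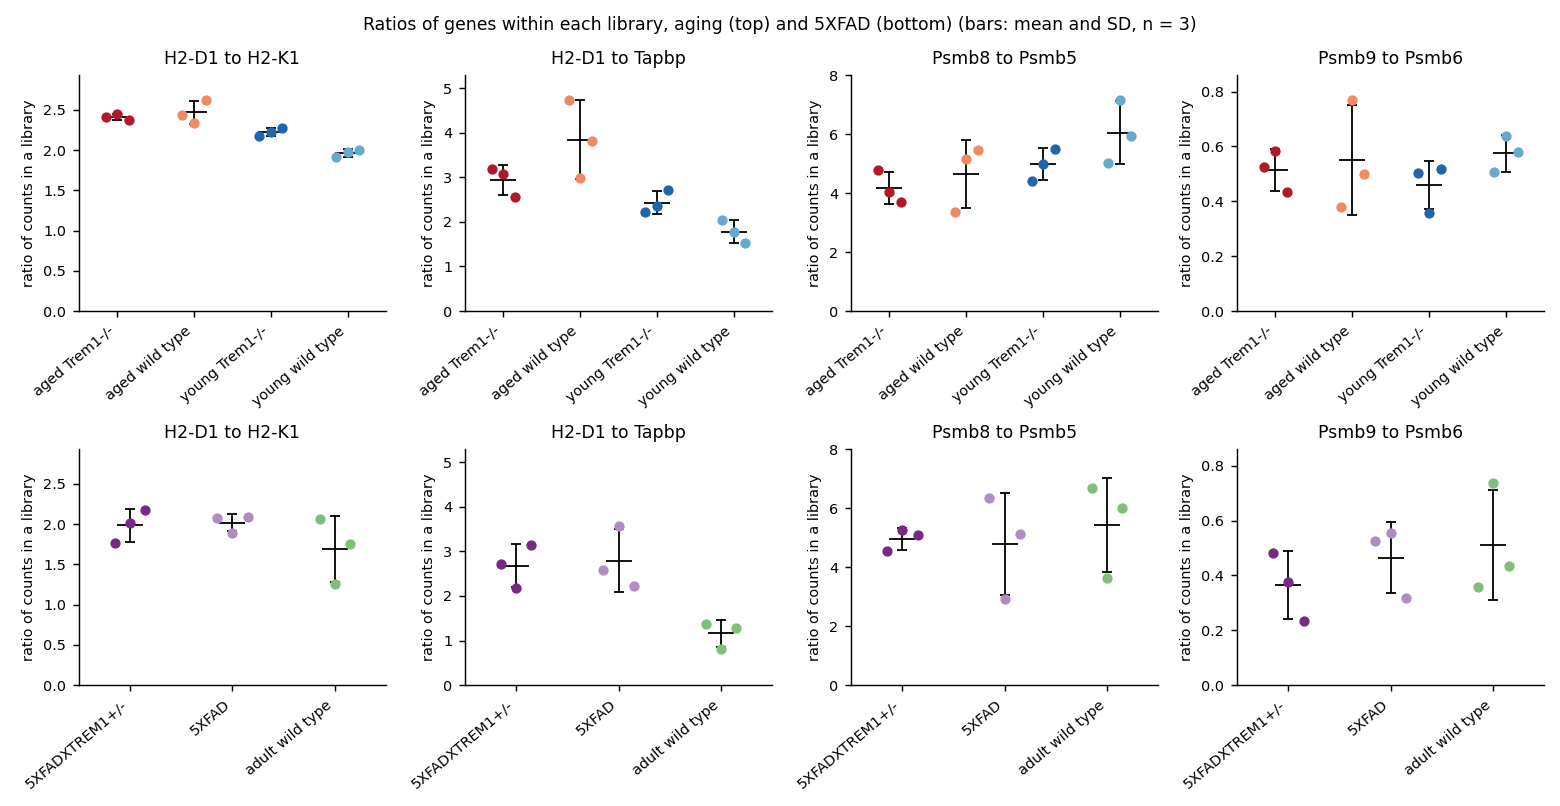
Ratio of the normalized counts of 2 genes in the same library (vertical axes, from 0), with a point per library and bars for mean and SD (n = 3), for the aging table above and the 5XFAD table below. H2-D1 to H2-K1 lies higher in all aged libraries (2.34 to 2.62) than in all young ones (1.91 to 2.27), and H2-D1 to Tapbp is lowest in adult wild type in the 5XFAD table.

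Across the 12 aging libraries, genes outside the set whose log2 values ran close to the mean of the members' standardized values included Adar, an interferon-inducible RNA editing enzyme, with a Pearson r of 0.916, Zfr (0.908), Myadm (0.878) and Cmip (0.863). Across the 9 libraries of the 5XFAD table they were Cops8 (0.972), Phlpp1 (0.964), Creb5 (0.964), Fbln5 (0.962) and Ndufa11 (0.962). These values describe the libraries, share their depth and scaling, and were picked from the highest of all genes tested. Members themselves did not run as 1 block, with r to that mean of 0.819 for H2-K1 and -0.02 for Psmb9 in the aging table, and 0.906 for H2-K1 and -0.25 for Tap2 in the 5XFAD table. Each member is part of that mean, which raises its own r, so these values do not compare with those of outside genes.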

How the data were processed

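Per the labels and the submitters' processing notes, total RNA of primary microglia was made into NEBNext Ultra libraries, and the notes name fastp, HISAT2 2.0.5, featureCounts 1.5.0-p3, DESeq2 1.20.0 and GRCm38. The annotation release, strandedness and RNA selection are not given in the sources used here. The deposited per-library columns hold a signal, gene counts divided by a size factor, normalized separately in the 2 tables. Dividing by the value of 1 read gave whole reads within 0.05 read for at least 99.9956% of values.

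Genes with a mean of at least 10 were tested on log2(normalized count + 1) by limma 3.58.1 under R 4.3.3, with its trend and robust options, all groups of a table in 1 fit, Benjamini-Hochberg over all genes, threshold 0.05. This scale understates changes of low genes. The fit was tested on simulated counts with known changes. Alternatives used edgeR 4.0.16 and DESeq2 1.42.0 on the recovered reads, TMM factors, pseudocounts of 0.5 and 5, no filter, limma without trend and robust, only the groups compared, a replicate block, and leaving out each library. Named were all members, Trem1, up to 4 genes of a list with the smallest adjusted p, and genes among the 5 most like the members' mean. Some genes that meet these rules are not reported here. Members, lists and motifs were chosen with earlier results of these data known. Replicates of a group differed by more than sampling noise (chi-square per degree of freedom 12.7 to 45.6). A floor of 3 reads equals 2.06 to 4.51 normalized counts, for counting error only.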

Additional observations from a re-analysis of the deposited data

Results flagged for a closer look

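The age effects on both classical heavy chains differed between the genotype labels by a direct test of that difference. For H2-D1 the age effect in libraries labelled Trem1-/- minus that in wild type was -0.98 ± 0.20 on the log2 scale (limma interaction, adjusted p = 0.0126), with aged libraries 0.05 from young ones under the label Trem1-/- and 1.04 from young ones in wild type. For H2-K1 it was -0.77 ± 0.19 (adjusted p = 0.0273), with age effects of -0.06 under the label Trem1-/- and 0.71 in wild type. With limma's trend and robust options off neither difference passed (adjusted p = 0.176 for H2-D1 and 0.240 for H2-K1), and with no filter on low genes H2-D1 was at 0.133. The H2-K1 interaction was lost without some single libraries, with adjusted p of 0.0636 to 0.10. Against wild type, the label Trem1-/- differed for H2-D1 by 0.56 in young and -0.42 in aged libraries (limma adjusted p = 0.0382 and 0.388). For H2-K1 these values were 0.38 and -0.39 (limma adjusted p = 0.161 and 0.379). Trem1 itself went against the label in the young groups.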

How the results depend on the processing

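The number of members past the threshold was recomputed under each alternative. For aged against young wild type it was 4, 1 without trend and robust and 2 to 4 on leaving out a library. For young labelled Trem1-/- against young wild type it was 1, 0 with no filter or without trend and robust, and 0 to 1 on leaving out a library. For aged labelled Trem1-/- against young wild type it was 2, 1 with no filter, with edgeR or with the replicate block, 0 without trend and robust, and 0 to 2 on leaving out a library. For the difference of age effects it was 2, 1 with no filter, 0 without trend and robust, and 1 to 3 on leaving out a library. For 5XFADXTREM1+/- against adult wild type it was 3, 2 with no filter or with the replicate block, 0 without trend and robust, 4 with DESeq2, which added Tap1, and 2 to 4 on leaving out a library. For 5XFADXTREM1+/- against 5XFAD it was 0, and 1 with no filter (B2m). For 5XFAD against adult wild type it was 1, 2 with no filter, 3 with DESeq2, 0 without trend and robust, and 0 to 3 on leaving out a library. Changes with a library left out come with fewer samples, and the cause of the others was not tested.

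Residuals of same-numbered libraries had a median r of 0.01 in each table. The highest r was 0.099 for aging and 0.203 for 5XFAD, where 1 of 9 pairs was over 0.1. In every group of the 5XFAD table choroid plexus sums were highest in replicate 1 and lowest in replicate 2. Endothelial sums were highest in replicate 1 and lowest in replicate 3, while neutrophil and monocyte sums kept no such order. Whether replicate numbers pair the libraries of the 5XFAD table was not settled. With the replicate block 86 of 90 member values kept their side of the threshold. Nlrc5 in aged labelled Trem1-/- against young wild type had an adjusted p of 0.0800, H2-D1 in 5XFADXTREM1+/- against adult wild type 0.0994, and in 5XFAD against adult wild type H2-K1 had 0.0650 and B2m 0.0329.

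Of 1400 recomputed log2 differences of members 59 changed sign, in 28 of 90 results, none past the threshold in either setting, and 53 of them on leaving out a library. For aged against young wild type, the ranges were Tap2 -0.12 to 0.072, Tapbp -0.12 to 0.0082 and Psmb8 -0.091 to 0.040. For young labelled Trem1-/- against young wild type, the ranges were H2-T23 -0.090 to 0.031, Tap2 -0.098 to 0.098, Psmb8 -0.12 to 0.029 and Psmb9 -0.30 to 0.0035. For aged labelled Trem1-/- against aged wild type, the ranges were Tap1 -0.0018 to 0.051, Tapbp -0.13 to 0.045 and Nlrc5 -0.26 to 0.0097. For aged against young labelled Trem1-/-, the ranges were H2-K1 -0.17 to 0.029, H2-D1 -0.069 to 0.16, H2-T23 -0.13 to 0.047 and Nlrc5 -0.029 to 0.64. For aged labelled Trem1-/- against young wild type, the range was H2-T23 -0.16 to 0.013. For the difference of age effects, the range was Psmb9 -0.15 to 0.15. For 5XFAD against adult wild type, the ranges were Tap2 -0.15 to 0.11, Tapbp -0.20 to 0.00048, Psmb8 -0.19 to 0.18 and Psmb9 -0.18 to 0.39. For 5XFADXTREM1+/- against 5XFAD, the ranges were H2-D1 -0.00062 to 0.37, Tap1 -0.0052 to 0.10, Tap2 -0.11 to 0.14, Psmb8 -0.017 to 0.35, Psmb9 -0.47 to 0.11 and Nlrc5 -0.36 to 0.59. For 5XFADXTREM1+/- against adult wild type, the ranges were Tap2 -0.11 to 0.12 and Psmb9 -0.17 to 0.091. With edgeR and DESeq2, Nlrc5 was at -0.081 and -0.080 and Tap2 at -0.00017 and -0.00050 for 5XFADXTREM1+/- against 5XFAD, and Psmb8 was at 0.0096 and 0.0099 for 5XFAD against adult wild type. The cause was not tested. Of the members Psmb9 and Nlrc5 had the fewest reads per library, and counting error is widest for them.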
